A study of Mus musculus with 17 samples.

Results

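Bone matrix contains, beside type I collagen, a set of secreted or membrane proteins that are made by cells of the osteoblast lineage. The genes of 7 of them were described here, namely Bglap, Bglap2, Bglap3, Spp1, Ibsp, Sparc and Ifitm5. They were chosen by name, and all 7 were found among the 55335 genes of the count files. Expression was measured by bulk RNA-seq in 17 libraries from mouse bone. Stromal cells were sorted by flow cytometry from digested bone as CD51+ cells without CD45, TER119 or CD31, and divided into skeletal stromal cells (SSCs), which carry Sca-1 and PDGFRα, and the more differentiated osteoprogenitor cells (OPCs), which lack Sca-1 and carry PDGFRα or not. They came from WT (Cxcr4+/+), +/1013 (Cxcr4+/1013) and 1013/1013 (Cxcr4 1013/1013) mice. The 1013 allele is a knock-in at the Cxcr4 locus that truncates the tail of this chemokine receptor and impairs its desensitization, as in the WHIM syndrome, and it is carried by all cells of the mouse rather than by bone cells alone. The mice were described as female littermates of 8 to 12 weeks. Each library came from 3000 cells pooled from 3 mice, so that a replicate is a pool and the p-values measure the spread between pools. There were 3 libraries per genotype and cell type, except for 1013/1013 SSCs, which had 2.

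In the mineralizing matrix, these proteins act at different places. Sparc (osteonectin) binds collagen and calcium. Spp1 (osteopontin) and Ibsp (bone sialoprotein) are acidic glycoproteins of the SIBLING family that carry an integrin-binding RGD motif, and bone sialoprotein can nucleate hydroxyapatite while osteopontin inhibits crystal growth and anchors osteoclasts. Osteocalcin, the product of Bglap and Bglap2 in the mouse, is a small protein whose glutamate residues are carboxylated with vitamin K and then bind calcium, and it is made late, by mature osteoblasts. Bglap3 is a related copy in the same cluster that is best known outside bone. Ifitm5 (BRIL) is a small membrane protein of mineralizing osteoblasts, and its gene is mutated in a form of osteogenesis imperfecta.

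The 3 osteocalcin genes lie next to each other on the minus strand of chromosome 3 (mm10, GENCODE M21), with Bglap (ENSMUSG00000074483) at chr3:88383501-88384464, Bglap2 (ENSMUSG00000074486) at chr3:88377736-88378699 and Bglap3 (ENSMUSG00000074489) at chr3:88368616-88372743. Spp1 (ENSMUSG00000029304, chr5:104435118-104441050) and Ibsp (ENSMUSG00000029306, chr5:104299171-104311469) are neighbours on the plus strand of chromosome 5. Sparc (ENSMUSG00000018593, chr11:55394500-55423183) and Ifitm5 (ENSMUSG00000025489, chr7:140948958-140950291) lie on the minus strand. The coding sequences of the osteocalcin genes are shown because their near identity limits how reads can be assigned to one copy. Each has 285 bases without the stop codon, in 4 coding exons that span chr3:88383638-88384415 for Bglap, chr3:88377873-88378650 for Bglap2 and chr3:88368759-88369536 for Bglap3. They are written 5′ to 3′ on the coding strand, and capitals mark the bases that differ from Bglap.
Bglap: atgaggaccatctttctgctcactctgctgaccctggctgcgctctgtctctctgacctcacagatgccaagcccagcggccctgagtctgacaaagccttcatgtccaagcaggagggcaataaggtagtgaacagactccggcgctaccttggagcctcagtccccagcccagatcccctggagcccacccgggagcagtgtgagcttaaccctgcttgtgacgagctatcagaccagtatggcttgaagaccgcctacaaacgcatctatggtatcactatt
Bglap2: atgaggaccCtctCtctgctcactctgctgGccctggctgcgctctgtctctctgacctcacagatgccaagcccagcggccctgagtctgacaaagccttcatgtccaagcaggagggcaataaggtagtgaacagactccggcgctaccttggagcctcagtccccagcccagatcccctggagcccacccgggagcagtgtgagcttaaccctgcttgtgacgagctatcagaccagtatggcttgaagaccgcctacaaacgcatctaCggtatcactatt
Bglap3: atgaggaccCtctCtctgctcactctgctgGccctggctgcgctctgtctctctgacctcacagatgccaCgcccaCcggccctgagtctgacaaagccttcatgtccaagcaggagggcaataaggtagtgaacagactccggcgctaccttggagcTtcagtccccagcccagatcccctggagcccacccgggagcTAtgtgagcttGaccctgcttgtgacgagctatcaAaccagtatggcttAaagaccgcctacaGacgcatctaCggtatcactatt

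Bglap2 differed from Bglap at 4 of these bases (98.6% identity) and Bglap3 at 13 (95.4%), while Bglap2 and Bglap3 differed at 9 (96.8%). Of the 391 stretches of 50 bases in the annotated exons of Bglap, 74.7% also occurred in Bglap2 and 20.5% in Bglap3. Of the 422 such stretches of Bglap2, 69.2% occurred in Bglap. A read that lies wholly within a shared stretch has no unique place, and the values of Bglap, Bglap2 and Bglap3 are therefore uncertain as levels of the single copies. For Spp1 and Ifitm5, 11.6% and 25.3% of the stretches were shared with another annotated gene (Gm42793 and Gm45717), which held 0 to 169 and 0 counts per library. No 50-base stretch of Ibsp or Sparc was shared.

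The OPC libraries held 64099849 to 92683497 counts on genes and the SSC libraries 44217695 to 50509592, so that 3 counts, taken as the limit of detection, amounted to 0.0324 to 0.0468 CPM in OPCs and 0.0594 to 0.0679 CPM in SSCs. The sort was visible in the summed levels of its markers, with Ly6a (Sca-1), Pdgfra and Itgav at 126 to 205 normalised CPM in OPCs and at 810 to 1934 in SSCs, and with the 5 osteoblast-lineage genes Runx2, Sp7, Alpl, Col1a1 and Col1a2 at 169668 to 522237 and at 4957 to 21017. Ly6a and Pdgfra were higher in SSCs in every genotype, but Itgav (CD51), by which both cell types were sorted, was not. Group means of Itgav were 47.8, 50.7 and 61.2 in WT, +/1013 and 1013/1013 OPCs, and 54.8, 28.3 and 28.6 in SSCs. Markers of 6 osteocyte genes summed to 440 to 2020 in OPCs and 5.96 to 27.1 in SSCs, and those of 7 chondrocyte genes to 15553 to 99402 and 3335 to 21169. Of the chondrocyte list, Comp had group means of 5215 to 8085 in OPCs and 7259 to 12105 in SSCs. The other genes of that list had lower means in SSCs in every genotype, such as Col2a1 with 25318 to 51759 in OPCs and 28.9 to 1442 in SSCs. Of the osteocyte list, Sost, a defining marker, stood at 0 to 2.96 in OPCs. In 3 libraries the sum of 12 leukocyte markers stood apart, at 19661 in WT OPC replicate 3, 13592 in 1013/1013 OPC replicate 2 and 6814 in WT SSC replicate 3, against 32.2 to 822 in the other 14, although the sort had excluded CD45+ cells. The osteoclast markers summed to 1167 and 1422 in the same OPC libraries and to 290 to 487 in the other 7. Of this list, Mmp9 reached 484 in WT and 1125 in 1013/1013 OPCs, and Ctsk was at 236 to 621 in OPCs. Acp5 and Calcr reached 47.9 and 70.9, and Oscar, Dcstamp, Ocstamp and Tnfrsf11a were at most 0.645, 1.75, 2.41 and 4.40. Macrophage, erythroid, endothelial, muscle and megakaryocyte markers summed to 1.12 to 136, 9.95 to 3252, 2.58 to 35.0, 30.4 to 398 and 2.99 to 17.9 in OPCs, and to 0.563 to 67.2, 110 to 896, 21.1 to 138, 3.60 to 125 and 10.3 to 28.2 in SSCs. The comparisons of the 7 genes between groups were repeated without these 3 libraries, whereas the correlations between the genes were not.

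Together, the 7 genes took 6.24% to 9.55% of all counts in OPCs and 1.17% to 2.29% in SSCs. Sparc alone made up 73.2% to 90.4% of the counts on the 7 genes in OPCs and 62.1% to 82.0% in SSCs, followed by Spp1 with 6.19% to 20.7% and 13.9% to 32.8%. Per kilobase of exon, Sparc was among the 2 highest genes of every OPC library and between rank 5 and rank 14 in every SSC library. Spp1 ranked 4 to 11 in OPCs and 8 to 24 in SSCs. Ibsp ranked 5 to 31 and 44 to 247, and Bglap 7 to 28 and 399 to 3674. Thus the order per kilobase in OPCs was Sparc, Spp1, Ibsp, Bglap, Bglap2, Ifitm5 and Bglap3 by the median, with 19277, 8225, 2621 and 1373 normalised CPM per kilobase for the first 4, 252 for Bglap2 and 199 for Ifitm5. The ranges of several neighbours in this order overlapped, such as 803 to 4797 for Bglap against 789 to 3313 for Ibsp, and 78.2 to 389 for Ifitm5 against 146 to 884 for Bglap2. In SSCs, Bglap2 had a median of 32.1 per kilobase (19.6 to 67.2) and Bglap of 23.2 (8.30 to 81.1), and Ifitm5 of 0.860 (0.477 to 2.37).

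**Figure D1:**
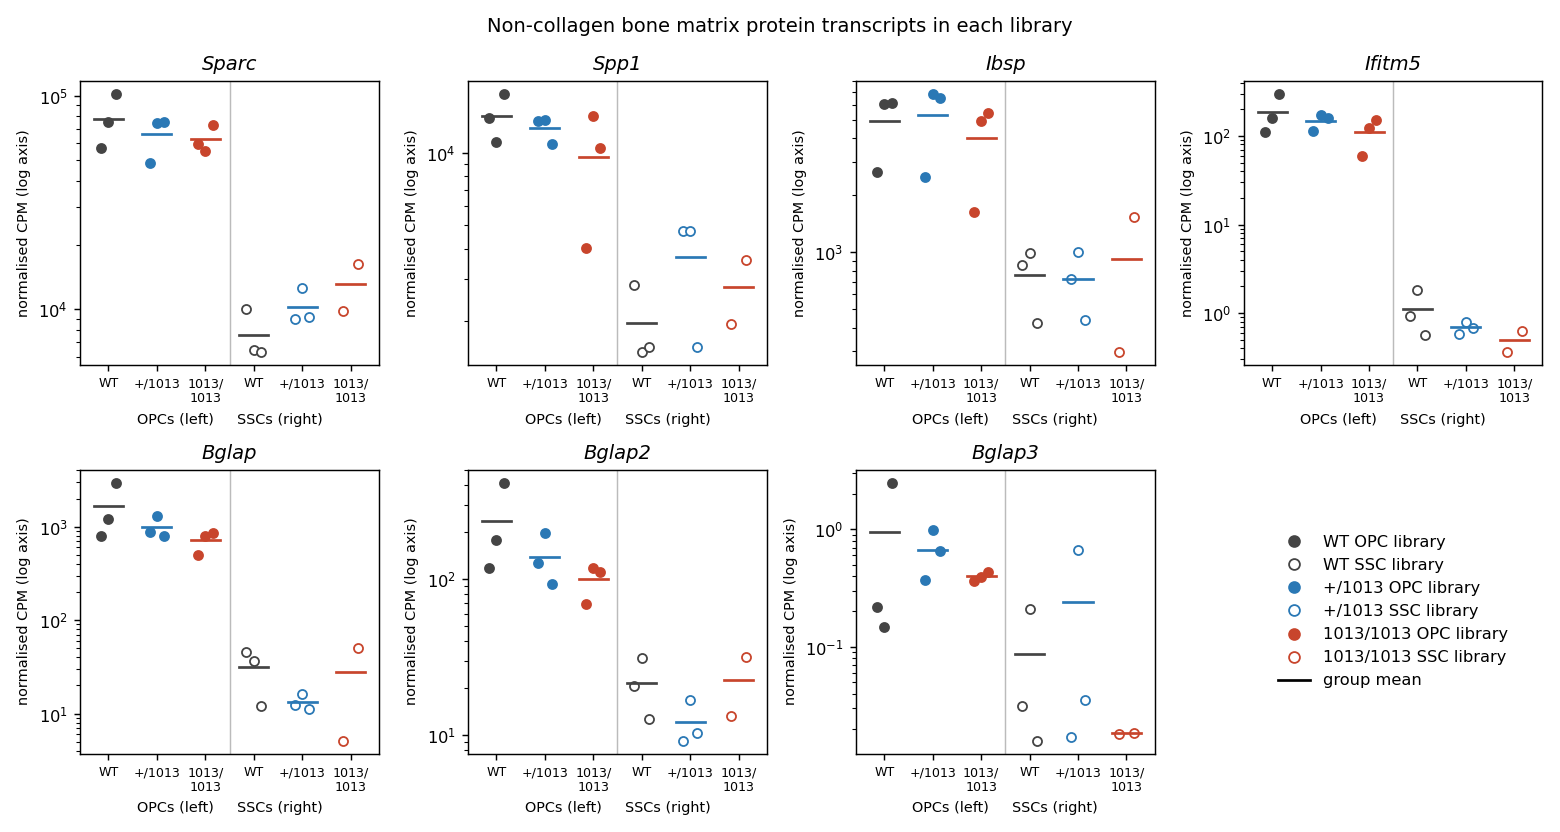
Normalised CPM of each gene in each of the 17 libraries, on log axes whose range differs between the panels. Filled points are OPC and open points SSC libraries, grouped by genotype, and a line marks the mean of each group. For all genes but Bglap3, every SSC point lies below every OPC point of the same genotype.

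Levels are given as normalised CPM, that is CPM scaled with TMM factors, for replicates 1, 2 and 3 in this order. Sparc reached 56720, 75307 and 101787 in WT, 48272, 74598 and 75316 in +/1013 and 59034, 55137 and 73020 in 1013/1013 OPCs. In SSCs, Sparc was at 10029, 6415 and 6311 in WT, 9005, 12529 and 9183 in +/1013, and 9851 and 16317 in 1013/1013 libraries. Sparc was thus the most even gene among the 9 OPC libraries, with a highest value 2.11-fold above the lowest, and its SSC values lay below its OPC values in every genotype. Spp1 was at 13941, 11142 and 17585 in WT, 13554, 13678 and 10847 in +/1013 and 4046, 14253 and 10495 in 1013/1013 OPCs. Its SSC values were 2835, 1492 and 1562 in WT, 4751, 4738 and 1557 in +/1013, and 1955 and 3579 in 1013/1013 libraries. The low OPC value of Spp1 belonged to 1013/1013 OPC replicate 1, which was still above every SSC library of its genotype.

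Ibsp was at 2653, 6055 and 6154 in WT, 2492, 6850 and 6558 in +/1013 and 1632, 4930 and 5420 in 1013/1013 OPCs. In SSCs, Ibsp was at 854, 995 and 421 in WT, 723, 1005 and 441 in +/1013, and 297 and 1538 in 1013/1013 libraries. Replicate 1 had the lowest Ibsp value of each OPC genotype, and in 1013/1013 the OPC and SSC values came close, at 1632 and 1538. Ifitm5 was at 109, 158 and 297 in WT, 115, 172 and 159 in +/1013 and 59.9, 122 and 153 in 1013/1013 OPCs. In SSCs, Ifitm5 was at 0.920, 1.82 and 0.574 in WT, 0.581, 0.804 and 0.683 in +/1013, and 0.365 and 0.633 in 1013/1013 libraries, values that rest on 20 to 120 counts. Ifitm5 was thus detected in every SSC library, above 3 counts, but at levels far under those of OPCs.

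Bglap was at 804, 1210 and 2964 in WT, 879, 1297 and 805 in +/1013 and 496, 798 and 848 in 1013/1013 OPCs. In SSCs, Bglap was at 45.2, 36.7 and 12 in WT, 12.3, 16.4 and 11.2 in +/1013, and 5.13 and 50.1 in 1013/1013 libraries. The highest Bglap value was that of WT OPC replicate 3, one of the libraries with many leukocyte transcripts, and the 1013/1013 SSC libraries lay at the lowest and the highest Bglap level of all SSCs. Bglap2 was at 117, 178 and 416 in WT, 128, 197 and 92.7 in +/1013 and 68.9, 119 and 112 in 1013/1013 OPCs. Its SSC values were 20.6, 31.1 and 12.7 in WT, 9.24, 16.8 and 10.3 in +/1013, and 13.4 and 31.6 in 1013/1013 libraries. Bglap2 was lower than Bglap in all OPC libraries but of similar level in most SSC libraries. Bglap3 was hardly detected, with 16, 9 and 120 counts in WT, 24, 51 and 47 in +/1013 and 26, 25 and 24 in 1013/1013 OPCs. Its SSC counts were 2, 14 and 1 in WT, 1, 35 and 2 in +/1013, and 1 and 1 in 1013/1013 libraries. Bglap3 was at or under 3 counts in 6 of the 8 SSC libraries.

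WT OPC replicate 3 had the highest OPC value of Bglap, Bglap2, Bglap3, Spp1, Sparc and Ifitm5. 1013/1013 OPC replicate 1 had the lowest of Bglap, Bglap2, Spp1, Ibsp and Ifitm5, and it also had the highest chondrocyte marker sum (99402 normalised CPM) and the lowest osteoblast-lineage sum (169668) among OPCs. The part of either feature in the levels of these genes was not tested. In bulk samples, fewer cells of a type and less RNA per cell cannot be told apart.

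To describe how these genes differ between the SSCs and their more differentiated progeny, SSCs were compared with OPCs of the same genotype. Sparc, Spp1, Ibsp, Ifitm5, Bglap and Bglap2 were lower in SSCs than in OPCs in WT and in +/1013 mice, which is 6 of 7 genes in each, and Sparc, Ifitm5, Bglap and Bglap2 were lower in 1013/1013 mice, which is 4 of 7. None was higher. A gene was called at an adjusted p under 0.05 in edgeR's quasi-likelihood test (Benjamini-Hochberg over 20238 genes) and a change of at least 1.5-fold. Of all genes tested, 5.86% were called lower in SSCs in WT, 6.02% in +/1013 and 6.12% in 1013/1013. Over the 7 genes, the median change was -3.45, -2.88 and -2.25 on the log2 scale, beside 0.17, 0 and -0.20 over all genes.

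The largest difference was that of Ifitm5. In WT, Ifitm5 fell from 188 ± 97.6 normalised CPM in OPCs to 1.10 ± 0.641 in SSCs (mean ± SD, n = 3 each), a log2 fold change of -7.43 (SE 0.59, edgeR adjusted p = 4.19e-06). The change of Ifitm5 was -7.75 (SE 0.60, edgeR adjusted p = 2e-06) in +/1013 and -7.80 (SE 0.73, edgeR adjusted p = 1.38e-05) in 1013/1013 mice. The call of Ifitm5 held in every genotype whichever library was left out and under each alternative processing.

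Bglap fell from 1659 ± 1148 to 31.3 ± 17.3 normalised CPM in WT (n = 3 each), a log2 fold change of -5.75 (SE 0.82, edgeR adjusted p = 0.000694). Its log2 fold change was -6.22 (SE 0.84, edgeR adjusted p = 0.000295) in +/1013 and -4.70 (SE 0.94, edgeR adjusted p = 0.00536) in 1013/1013 mice. Bglap2 changed less, with -3.48 (SE 0.54, edgeR adjusted p = 0.00121) in WT, -3.52 (SE 0.54, edgeR adjusted p = 0.000820) in +/1013 and -2.15 (SE 0.60, edgeR adjusted p = 0.0309) in 1013/1013. Without the 3 leukocyte-rich libraries, the WT values were -4.63 for Bglap and -2.53 for Bglap2, and both were still called. The 1013/1013 call of Bglap2 was lost without OPC replicate 2 (edgeR adjusted p = 0.0617), OPC replicate 3 (0.0712) or SSC replicate 1 (0.250). The counts of Bglap, Bglap2 and Bglap3 were also summed, so that the split of the counted reads among them does not matter. Reads with no unique place remain missing from this sum. Its log2 fold change was -5.18 (SE 0.67, edgeR adjusted p = 0.000317) in WT, -5.47 (SE 0.68) in +/1013 and -4.02 (SE 0.75) in 1013/1013. Bglap3 alone was not called in any genotype (edgeR adjusted p = 0.165, 0.535 and 0.163).

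Sparc fell from 77938 ± 22649 to 7585 ± 2117 normalised CPM in WT (n = 3 each), a log2 fold change of -3.38 (SE 0.36, edgeR adjusted p = 5.45e-05). Its change was -2.69 (SE 0.35, edgeR adjusted p = 0.000197) in +/1013 and -2.25 (SE 0.40, edgeR adjusted p = 0.00238) in 1013/1013 mice. The SIBLING genes changed by similar amounts in WT, from 14223 ± 3231 to 1963 ± 756 for Spp1 (log2 fold change -2.87, SE 0.52, edgeR adjusted p = 0.00309) and from 4954 ± 1993 to 756 ± 299 for Ibsp (log2 fold change -2.73, SE 0.67, edgeR adjusted p = 0.0175). In +/1013, the log2 fold change was -1.79 for Spp1 (SE 0.50, edgeR adjusted p = 0.0307) and -2.88 for Ibsp (SE 0.67, edgeR adjusted p = 0.0128). In 1013/1013, it was -1.80 for Spp1 (SE 0.58, edgeR adjusted p = 0.0563) and -2.12 for Ibsp (SE 0.76, edgeR adjusted p = 0.0844), and neither was called although the libraries did not overlap.

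The calls of Ibsp in WT, of Spp1 and Ibsp in +/1013 and of Bglap2 in 1013/1013 rested on single libraries. That of Spp1 in WT held whichever library was left out and under each alternative processing (log2 fold change -3.24 to -2.55). In WT, the call of Ibsp was lost without OPC replicate 2 (edgeR adjusted p = 0.0540), OPC replicate 3 (0.0516), SSC replicate 1 (0.0576) or SSC replicate 3 (0.0730), and without the 3 leukocyte-rich libraries it was also lost (log2 fold change -2.25, edgeR adjusted p = 0.162), which left 5 of 7 genes called. In +/1013, the call of Spp1 was lost when any of the 6 libraries was left out (edgeR adjusted p = 0.0551 to 0.0920), and that of Ibsp without SSC replicate 1 (0.0515) or 3 (0.0532). In 1013/1013, Spp1 was called without OPC replicate 1 (edgeR adjusted p = 0.0240) and Ibsp without SSC replicate 2 (0.0180). When only the 1013/1013 libraries entered the fit, Ifitm5 was the 1 gene of the 7 to be called in that genotype. For the 6 genes other than Bglap3, every SSC library lay below every OPC library of its genotype, for which the exact permutation test on single genes gives p = 0.1 in WT and +/1013 and p = 0.2 in 1013/1013, the smallest values it can give with these numbers of libraries.

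**Figure D2:**
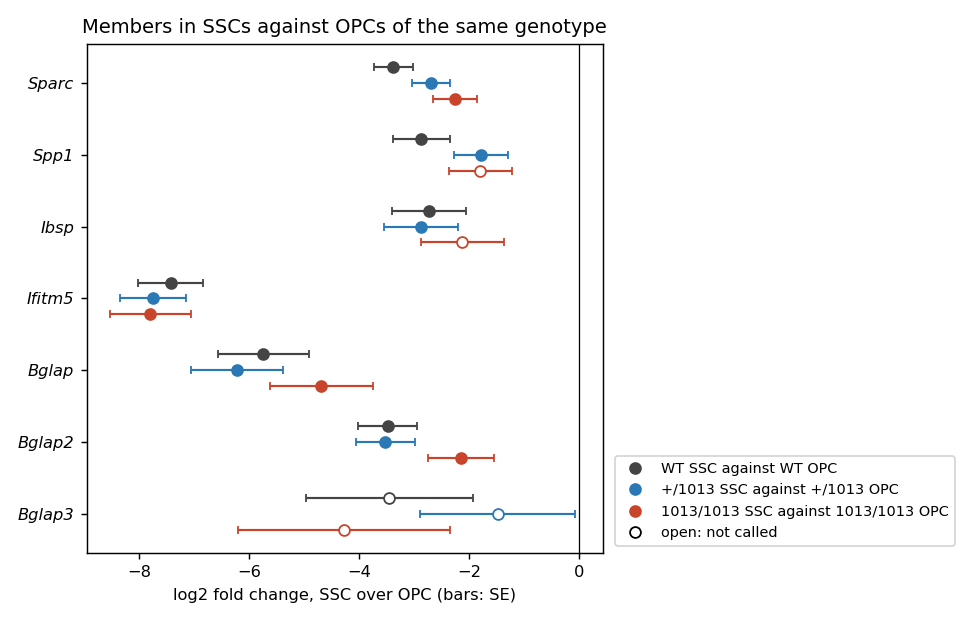
Log2 fold change in SSCs over OPCs of the same genotype for each gene, from the fit of all 17 libraries. Points are the fitted values, bars 1 SE, and open points were not called. Ifitm5 lies lowest in all 3 genotypes, and the open points are Bglap3 in every genotype and Spp1 and Ibsp in 1013/1013.

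The difference in size between Bglap and Bglap2 was examined after their values had been seen. The ratio of the Bglap to the Bglap2 count was 6.85, 6.81 and 7.12 in WT, 6.89, 6.57 and 8.68 in +/1013 and 7.20, 6.72 and 7.59 in 1013/1013 OPCs. In SSCs, the ratio was 2.19, 1.18 and 0.943 in WT, 1.33, 0.972 and 1.09 in +/1013, and 0.383 and 1.58 in 1013/1013 libraries. Hence Bglap exceeded Bglap2 by a nearly constant factor in the 9 OPC libraries, and the highest SSC ratio lay below the lowest OPC ratio. The mean log2 ratio was 2.70 lower in SSCs, which is given as a description with no test, since the separation had been seen. Reads with no unique place, which can include those shared between the copies, made up 5.10% to 8.56% of SSC and 7.75% to 10.4% of OPC libraries. Their part in the ratio was not tested.

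**Figure D3:**
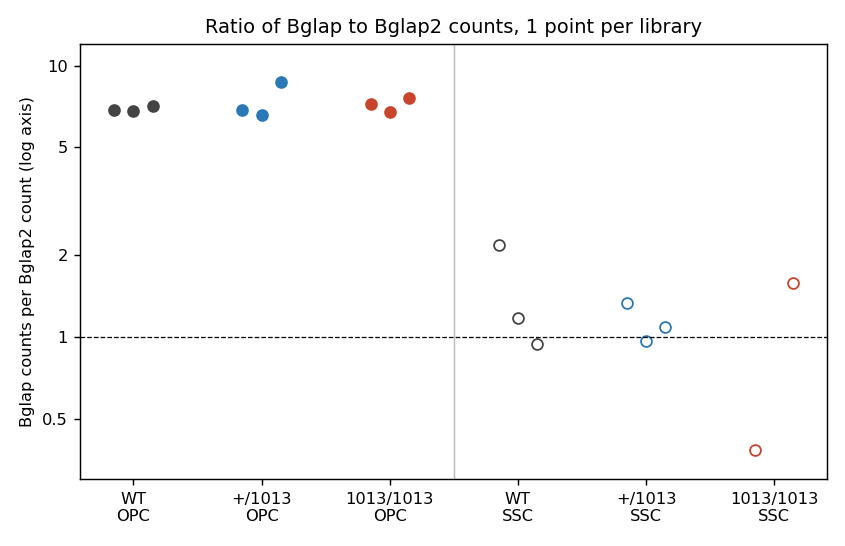
Ratio of the Bglap count to the Bglap2 count in each library, on a log axis, by genotype and cell type. The dashed line marks equal counts. OPC libraries lie between 6.57 and 8.68 and SSC libraries between 0.383 and 2.19.

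The sequence before the transcription start was also compared. Of the 7 genes, 6 had a promoter entry in RefSeq (GRCm38.p6), and Bglap2 had none. The 250 bases before each start were searched on both strands for ACCACA, the core of the motif of Runx2, the transcription factor required for osteoblast differentiation. It was found in 2 of the 6 genes, Bglap and Spp1, 132 and 128 bases before the start and on the strand of the gene. The motif was not found for Ibsp, Ifitm5 and Sparc, which were called lower in WT SSCs as well. Runx2 itself was also lower in SSCs, and its part in the levels of these genes was not tested. The promoters with the motif are shown, and capitals mark it.
Bglap, chr3:88384467-88384716, minus strand: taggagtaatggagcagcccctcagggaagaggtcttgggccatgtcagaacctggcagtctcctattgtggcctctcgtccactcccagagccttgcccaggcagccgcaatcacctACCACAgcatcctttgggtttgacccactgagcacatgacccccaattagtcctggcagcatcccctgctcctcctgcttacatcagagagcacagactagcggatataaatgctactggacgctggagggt
Spp1, chr5:104434861-104435110, plus strand: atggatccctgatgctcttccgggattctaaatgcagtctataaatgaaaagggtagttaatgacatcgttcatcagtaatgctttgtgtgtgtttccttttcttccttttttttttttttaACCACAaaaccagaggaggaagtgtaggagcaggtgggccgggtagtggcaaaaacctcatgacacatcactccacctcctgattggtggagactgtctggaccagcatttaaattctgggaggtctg

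In Spp1, the motif is also part of the longer form AACCACA, which overlaps it. Of all 27025 genes with a promoter of this length, 15.9% held ACCACA and 5.08% held AACCACA in at least 1 promoter. A match of letters is a description and not a binding site.

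Genes that act on or with these proteins were described from a list of 58 genes, of which 55 were tested. In SSCs compared with OPCs, 16 were called lower and 5 higher in WT, 17 and 6 in +/1013, and 20 and 9 in 1013/1013. Over all genes, 5.55%, 6.44% and 6.94% were called higher, and the shares called lower were those given above. Among the SIBLING relatives, Dmp1 and Mepe, which are made by late osteoblasts and osteocytes, were lower in WT SSCs (log2 fold change -7.21 and -6.99, edgeR adjusted p = 0.00280 and 0.0233). Dmp1 was also called in +/1013 and 1013/1013 (edgeR adjusted p = 0.00141 and 0.00133), while Mepe was not (0.0715 and 0.198). Of the enzymes that modify the proteins, Vkorc1, which recycles the vitamin K needed to carboxylate osteocalcin, was at -2.67 in WT (edgeR adjusted p = 0.000199), and Fam20c, the secretory kinase that phosphorylates SIBLING proteins, was at -1.71 (edgeR adjusted p = 0.00409). Fkbp11, which binds Ifitm5, was at -3.65 (edgeR adjusted p = 0.000411). These 3 genes were called lower in every genotype. Of the 6 genes of Gla proteins and carboxylation, Vkorc1 was the only one called lower in WT, and Gas6, another protein carboxylated with vitamin K, was higher (2.34, edgeR adjusted p = 0.0296). Of the 3 secretory kinases, 2 were called lower in WT. Of the 9 other non-collagen bone matrix genes listed, Bgn was called lower in every genotype (-1.51, -0.98 and -1.10). Clec3b was called higher in each (7.11, 6.65 and 7.67). Serpinf1 was also called lower in WT, and Clec11a and Thbs1 in +/1013 and 1013/1013, while the others of these were not called. Col1a1 was called lower in every genotype (-4.80, -7.01 and -6.30), as was Col1a2 (-4.47, -5.11 and -4.42).

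Among transcription factors of the osteoblast lineage, Runx2 (-1.53), Sp7 (-3.98) and Vdr (-4.72) were called lower in WT SSCs, and also in +/1013 and 1013/1013 SSCs. Twist1, which restrains osteoblast differentiation, was called higher in 1013/1013 SSCs (1.49, edgeR adjusted p = 0.0107). The phosphatases Alpl and Phospho1, which supply phosphate for mineral, were at -2.49 and -6.26. Of the 7 relatives of Sparc tested, 0 were called lower and 2 higher in WT and in +/1013 SSCs, and 1 was called lower and 4 higher in 1013/1013 SSCs. Those higher in WT were Sparcl1 (3.26, edgeR adjusted p = 0.00123) and Fstl1 (1.93, edgeR adjusted p = 0.000974). In 1013/1013, Smoc2 (2.18) and Spock2 (2.47) were higher as well, and Spock3 was lower (edgeR adjusted p = 0.0336). In the Ifitm family, Ifitm2 and Ifitm3 were called higher in SSCs of +/1013 (1.64 and 2.66) and 1013/1013 mice (1.78 and 3.07). Of the receptors, Itgb5, an integrin subunit that takes part in binding osteopontin, was the only 1 of 6 tested to be called in WT, and it was higher (0.95, edgeR adjusted p = 0.0438). Itgb5 was not called in +/1013 or 1013/1013 (edgeR adjusted p = 0.158 and 0.05003), where the receptors called numbered 0 and 1, the latter being Itgav, which was lower (-1.10, edgeR adjusted p = 0.0457).

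The question of whether the Cxcr4 1013 allele alters these genes was examined within each cell type. In OPCs, 0 of 7 genes were called in +/1013 compared with WT, where 0% of all genes tested were called, and 0 of 7 in 1013/1013 compared with WT, where 0.00617% were. For none of the 7 genes did the groups lie apart without overlap, which was the case for 5.66% and 7.68% of all genes in the 2 comparisons. In +/1013 OPCs, the log2 fold change was -0.75 for Bglap (SE 0.48), -0.78 for Bglap2 (SE 0.49), -0.35 for Ifitm5 (SE 0.44), -0.25 for Sparc (SE 0.39), -0.17 for Spp1 (SE 0.45) and 0.09 for Ibsp (SE 0.58), and no gene had an unadjusted p under 0.05, beside 2.04% of all genes. The edgeR adjusted p was 1 for each.

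In 1013/1013 OPCs, the log2 fold change was -1.22 for Bglap (SE 0.49, edgeR unadjusted p = 0.0350) and -1.26 for Bglap2 (SE 0.49, edgeR unadjusted p = 0.0329), which did not pass the adjustment over all genes (edgeR adjusted p = 0.9997). These were the only 2 of the 7 genes with an unadjusted p under 0.05, which 3.38% of all genes had. Without WT OPC replicate 3, which had the highest levels of both, the values were -0.50 (edgeR unadjusted p = 0.189) and -0.57 (edgeR unadjusted p = 0.181). Ifitm5 was at -0.76 (SE 0.44), and at -0.26 without that library. Spp1 was at -0.57 (SE 0.45), Sparc at -0.33 (SE 0.39) and Ibsp at -0.32 (SE 0.58). The point estimates of all 6 genes were thus below 0 in 1013/1013 OPCs, but none passed the adjustment over all genes, and the groups overlapped for each. The DESeq2 test, run as an alternative, called 0 of the 7 genes in either comparison.

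**Figure D4:**
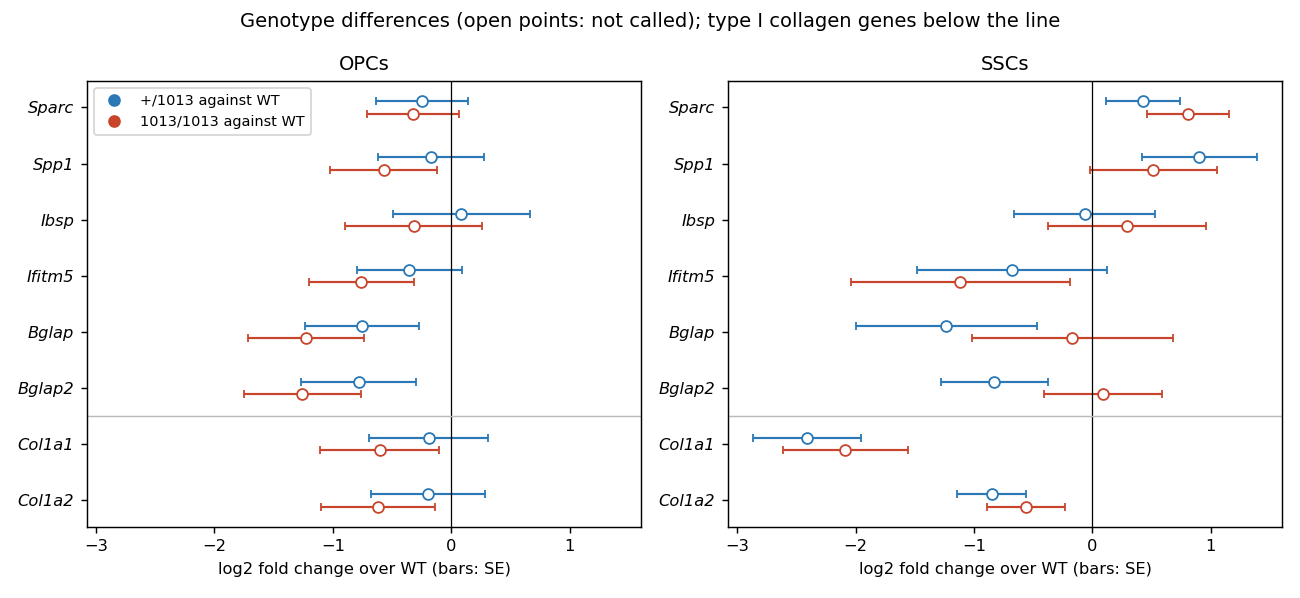
Log2 fold change over WT in OPCs (left) and SSCs (right) for +/1013 and 1013/1013, with bars of 1 SE, for 6 genes and, below the grey line, for the type I collagen genes Col1a1 and Col1a2. Bglap3 is not drawn because it was at or under 3 counts in most SSC libraries. All points are open because none was called.

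In SSCs, 0 of 7 genes were called in +/1013 compared with WT, beside 0.0736% of all genes, and 0 of 7 in 1013/1013, beside 0%. The groups overlapped for all 7 genes in both comparisons, whereas they did not for 31.2% and 40.6% of all genes tested. In +/1013 SSCs, the log2 fold change was -1.23 for Bglap (SE 0.77), -0.83 for Bglap2 (SE 0.45), -0.68 for Ifitm5 (SE 0.80), -0.07 for Ibsp (SE 0.60), 0.43 for Sparc (SE 0.31) and 0.90 for Spp1 (SE 0.49), with edgeR adjusted p from 0.393 to 0.976. The signs were therefore mixed, with Bglap, Bglap2 and Ifitm5 below and Spp1 and Sparc above 0. In 1013/1013 SSCs, the values were -1.12 for Ifitm5 (SE 0.92), -0.17 for Bglap (SE 0.85), 0.09 for Bglap2 (SE 0.50), 0.29 for Ibsp (SE 0.66), 0.52 for Spp1 (SE 0.54) and 0.81 for Sparc (SE 0.35). Sparc had the only unadjusted p under 0.05 among the 7 genes (edgeR unadjusted p = 0.0491, adjusted p = 0.272). Such a p was reached by 0 of the 7 genes in +/1013 and by 1 in 1013/1013, beside 17.3% and 18.3% of all genes. Without the 3 leukocyte-rich libraries, it was reached by 1 of the 7 genes in +/1013 and by 0 in 1013/1013. Bglap3, at 1 to 35 counts per SSC library, had an edgeR adjusted p of 0.732 and 0.587. The median over all genes tested was -0.11 in +/1013 and -0.23 in 1013/1013 SSCs. DESeq2 called 0 of the 7 genes in either comparison.

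WT SSC libraries differed from the mutant SSC libraries in technical measures, with 3.68% to 4.16% of reads on no gene against 1.5% to 2.69%, and with 21449 to 22599 genes with a count against 15748 to 19227. The part of these measures in the comparisons of SSC genotypes cannot be told apart from that of the allele. The share of counts on the 7 genes was 1.17% to 1.78% in WT, 1.30% to 1.97% in +/1013 and 1.5% to 2.29% in 1013/1013 SSCs, so that the ranges overlapped, while the share on type I collagen was 2.24% to 2.78%, 0.563% to 1.17% and 0.865% to 0.997%.

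The 2 libraries of 1013/1013 SSCs differed from each other in Bglap (5.13 and 50.1 normalised CPM) and Ibsp (297 and 1538). The log2 fold change of Bglap was -2.61 without replicate 2, beside a median of -0.80 over all genes. Without replicate 1 it was 0.68, beside a median of -0.28. In both cases the remaining library is assumed to vary like the other groups. Type I collagen, the main protein of the matrix, is given for comparison. Col1a1 was at -2.41 (SE 0.46, edgeR adjusted p = 0.110) in +/1013 and at -2.09 (SE 0.53, edgeR adjusted p = 0.136) in 1013/1013 SSCs, and Col1a2 was at -0.85 and -0.56. None of the 58 listed partner genes was called by edgeR, the only test read for them, in a comparison of genotypes. Of them, 0 and 2 in OPCs and 16 and 17 in SSCs had an unadjusted p under 0.05. These are to be read against the 2.04%, 3.38%, 17.3% and 18.3% of all genes, with 54 of the listed genes tested in OPCs and 53 in SSCs.

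Whether the effect of the allele differed between the cell types was tested as an interaction in the fit of all 17 libraries. For the +/1013 effect 0 of 7 genes were called, beside 0.084% of all genes, and for the 1013/1013 effect 0 of 7, beside 0.153%. The difference of the log2 fold changes (SSC minus OPC) for 1013/1013 was 1.12 for Sparc (SE 0.48, edgeR unadjusted p = 0.0366, adjusted p = 0.309), the only one of the 7 genes with an unadjusted p under 0.05, beside 15% of all genes, and 1.33 for Bglap2 (SE 0.73). In the +/1013 interaction, 0 of the 7 genes and 10.6% of all genes had such a p. Without the 3 leukocyte-rich libraries, 0 of the 7 genes had such a p in either interaction. For Spp1 the difference was 1.09 for +/1013 and 1.08 for 1013/1013. The median over all genes was -0.39 for the 1013/1013 interaction and -0.26 with upper-quartile scaling, so that part of each positive difference depends on the scaling.

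The genes were also compared with each other over the libraries of each cell type, as log2 of the normalised CPM plus 1, in 21 pairs per cell type. In OPCs, all 21 Pearson correlations were positive, from 0.24 for Spp1 and Sparc to 0.99 for Bglap and Bglap2, with a median of 0.72. Of these, 13 had an exact permutation p under 0.05 and 7 an adjusted p under 0.05, while 1 pair passed the adjustment by Spearman's rho. The share over all pairs of genes was not computed in either cell type, so that these counts are not read as particular to the 7 genes. Genes outside the 7, ranked among many, had r of 0.957 to 0.984 with single genes of the 7 over the OPC libraries. The closest pairs were Bglap and Bglap2 (n = 9, r = 0.987, exact p = 0.000154, adjusted p = 0.00324, rho = 0.850), which share reads, and Bglap and Ifitm5 (r = 0.911, exact p = 0.00166, adjusted p = 0.0117, rho = 0.800). Ibsp and Ifitm5 had r = 0.840 (exact p = 0.00147, adjusted p = 0.0117) and the highest rho, 0.933. Much of this rested on single libraries. Without WT OPC replicate 3 and 1013/1013 OPC replicate 1, the libraries farthest from the median of Bglap, r was 0.946 for Bglap and Bglap2 (exact p = 0.0111) but 0.625 for Bglap and Ifitm5 (exact p = 0.120). Of all 21 pairs, 2 kept an exact p under 0.05 when the 2 farthest libraries were left out.

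In SSCs, 18 of 21 correlations were positive, from -0.36 to 0.87 with a median of 0.36. Among them, 3 had an exact permutation p under 0.05 and 0 passed the adjustment by Pearson's r or Spearman's rho. The closest pair was Bglap and Ibsp (n = 8, r = 0.867, exact p = 0.00342, adjusted p = 0.0719, rho = 0.881), with r = 0.846 without the 2 farthest libraries (exact p = 0.0111).

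**Figure D5:**
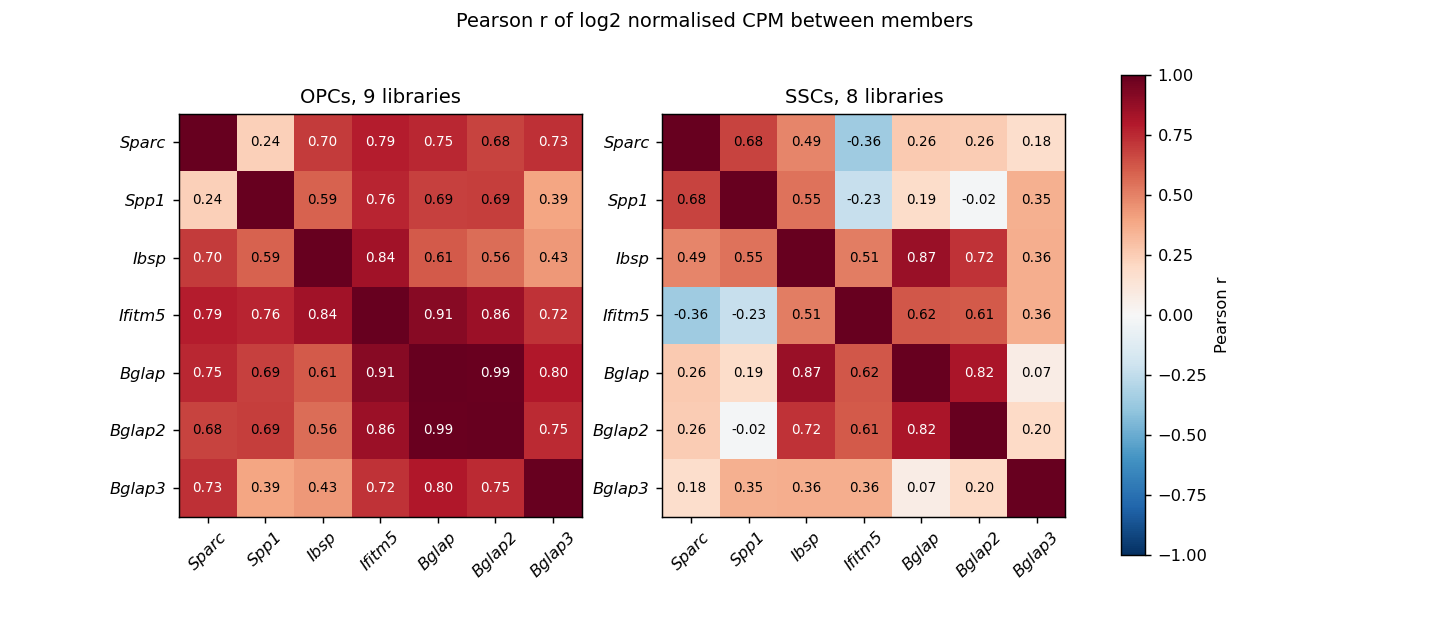
Pearson correlation of each pair of genes over the 9 OPC libraries (left) and the 8 SSC libraries (right), from log2 of normalised CPM plus 1. The colour and the printed number give r. All OPC values are above 0, with 0.99 for Bglap and Bglap2 as the highest.

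Among 7948 genes that averaged 10 CPM or more, those whose log2 levels were most alike over the 9 OPC libraries are given as a description. For Ifitm5 they were Serpinf1, which encodes the secreted matrix protein PEDF, Kazald1 and Pcolce, an enhancer of procollagen processing, with r from 0.979 to 0.984. Over the 8 SSC libraries, r of these genes was -0.18 to 0.27. For Ibsp, they included Lox (0.973), the enzyme that crosslinks collagen. Lox had r = 0.777 over the SSC libraries, beside 0.18 for Gars and 0.61 for Slc27a3, the others closest to Ibsp. For Sparc, Copz2, Tmem208 and Prorsd1 came first (0.970 to 0.979 in OPCs, 0.41 to 0.54 in SSCs). For Spp1 it was Rai14, Robo2 and Glis2 (0.957 to 0.980 in OPCs, -0.73 to 0.12 in SSCs). For Bglap, the closest were Clta, Sdhb and Elof1 (0.970 to 0.974), and for Bglap2 they were Iscu, Mrps24 and Elof1 (0.966 to 0.976), all with negative r over the SSC libraries. These points share depth and sort, and genes were ranked among many, so that such values are not a finding about single genes.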

How the data were processed

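RNA of the sorted cells was turned into cDNA by the authors with SMART-Seq v4 chemistry, tagmented with Nextera XT and sequenced in paired ends. After FastQC and the removal of short reads, STAR placed the reads on mm10, and HTSeq counted them per gene. Versions, annotation and HTSeq settings are not given in the sources used here, so that reads from a gene and an antisense partner may not be told apart. The deposited values are raw counts per gene for each library, with no normalization. HTSeq's own counters were left out of library sizes and tests, and their shares of reads on no gene, ambiguous reads and reads with no unique place were 1.15% to 4.16%, 1.87% to 3.93% and 5.10% to 10.4%. Of 55335 genes, 55154 matched GENCODE M21, which gave symbols and positions. Per-sample columns of other series numbered 0.

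Counts were tested in R 4.3.3 with edgeR 4.0.16 (filterByExpr, TMM, glmQLFit with legacy = TRUE, no covariates). SSCs were compared with OPCs, and genotype effects between cell types, in 1 fit of 17 libraries, and genotypes in 1 fit per cell type (16207 genes in OPCs, 17659 in SSCs). Calls needed a Benjamini-Hochberg adjusted p under 0.05 over all genes and 1.5-fold. The SE is the absolute log2 fold change divided by the square root of F. Same-numbered WT and +/1013 OPC libraries deviated together from their group means (r = 0.49, 0.15 and 0.16), which comes from the data and not from the labels, and the replicate block, an alternative, changed no call of the 7 genes there. Exact permutation tests (two-sided) enumerated all arrangements in R, or in Python 3.11.15 with numpy 2.4.6 for correlations. The code was tested on simulated data. DESeq2 1.42.0, other scalings, filters and fits, and leaving out libraries were alternatives. The study's methods used DESeq2, whereas edgeR was the main test here, and DESeq2 called more genes in most comparisons. All 7 genes passed the filter in the main fits, while Bglap3 was filtered out in some of the alternatives, and all are named. A partner gene could be named if it was called, or if it was Runx2, Sp7, Dmp1, Mepe, Fam20c or type I collagen, and for each gene the 3 most alike genes over OPCs were taken. The genes and all lists were chosen with earlier results of these data known. Coding sequences are from GENCODE M21 and promoters from RefSeq. Counting error sets the limit of 3 counts only. Each library is deep, so that the number of pools limits the precision.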

Additional observations from a re-analysis of the deposited data

How the results depend on the processing

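Of the counts of genes called and of correlated pairs, 184 values under an alternative stayed within 1.5 times the reported count and 8 did not. When only the 1013/1013 groups entered the fit, 1 of 7 genes was called between SSCs and OPCs instead of 4, since Bglap, Bglap2 and Sparc were lost (edgeR adjusted p = 0.0931, 0.0883 and 0.223). Without TMM scaling, 2 instead of 7 pairs of genes were correlated in OPCs, and leaving out single libraries gave 2 to 10 pairs in OPCs and 0 to 1 in SSCs. Spp1 and Ibsp, not called in 1013/1013, were called by DESeq2 (adjusted p = 0.00470 and 0.00915) and with at least 10 counts in every library (0.0342 and 0.0423). Over all genes, edgeR and DESeq2 called 2308 and 3833 in WT, 2521 and 4275 in +/1013 and 2642 and 4736 in 1013/1013 for SSCs against OPCs, and 0 and 58, and 1 and 42, for +/1013 and 1013/1013 OPCs, 13 and 1302, and 0 and 1665, for the SSCs, and 17 and 432, and 31 and 1150, for the interactions. Without the 3 leukocyte-rich libraries, a setting chosen after seeing the data, 1020 were called in WT.

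Among the groups compared, the deviations of same-numbered libraries all correlated above 0.1 only in WT and +/1013 OPCs. They also did so between +/1013 and 1013/1013 OPCs (r = 0.21, 0.12 and 0.26) and SSCs (0.12 and 0.14), which share a fit but were not compared. The numbers were not taken as pairs. Over all same-numbered libraries, r was -0.48 to 0.49 within a cell type, with 9 of 16 pairs over 0.1. Between cell types it was -0.36 to 0.40, with 4 of 24. With the replicate block, 6, 6 and 5 of the 7 genes were called between cell types, the gain being Ibsp in 1013/1013 (edgeR adjusted p = 0.0430), and 0 between genotypes or in the interactions.

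Signs changed only for values that were not called, and the cause was not tested. With the block, the log2 fold change was 0.25 for Bglap3 in +/1013 OPCs, and -0.15 for Bglap2 and -0.28 for Ibsp in 1013/1013 SSCs. Without the 3 leukocyte-rich libraries, it was 1.88 for Bglap3, 0.0153 for Spp1 and 0.15 for Ifitm5 in +/1013 OPCs, 1.13 for Bglap3 and 0.00459 for Sparc in 1013/1013 OPCs, -0.17 for Bglap2 in 1013/1013 SSCs and -0.89 for Bglap3 in the +/1013 interaction. With upper-quartile scaling, the +/1013 interaction of Bglap2 was 0.0712. Leaving out single libraries gave the following ranges. In +/1013 OPCs they were -1.02 to 1.88 for Bglap3, -0.20 to 0.44 for Ibsp, -0.62 to 0.15 for Ifitm5 and -0.32 to 0.0150 for Spp1, and in 1013/1013 OPCs -1.78 to 1.12 for Bglap3 and -0.61 to 0.0726 for Ibsp. In SSCs, they were -0.39 to 0.17 for Ibsp in +/1013, and -2.61 to 0.68 for Bglap, -0.68 to 0.56 for Bglap2, -1.35 to 1.02 for Ibsp and -0.0106 to 0.87 for Spp1 in 1013/1013. For the +/1013 interaction, they were -0.75 to 0.32 for Bglap2, -1.14 to 3.75 for Bglap3, -0.51 to 0.14 for Ibsp and -0.84 to 0.23 for Ifitm5, and for that of 1013/1013 -1.34 to 1.91 for Bglap, -3.20 to 0.95 for Bglap3, -0.99 to 1.35 for Ibsp and -0.85 to 0.19 for Ifitm5.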
